A study of Mus musculus with 8 samples.

Results

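Genes that report on signalling through the T cell receptor (TCR) were followed in mature CD8 single-positive (CD8SP) thymocytes: Cd5, Cd6, Nr4a1, Nr4a3, Egr1, Egr2, Egr3, Fos, Jun and Junb. These 10 members were taken by name as genes induced by, or scaled to, the strength of TCR signals, out of 47937 genes in the count table. All 10 passed the filter on low counts, which left 14633 genes tested. The libraries came from thymus CD8SP TCRb+ MHC-I high cells sorted from mice aged 6 to 7 weeks, with 1 library per mouse and 4 mice per group. Ndrg3ctrl mice were Ndrg3 +/fl;Lck-cre+ and Ndrg3TKO mice were Ndrg3 fl/fl;Lck-cre+. Both groups thus carried the Cre transgene, driven by the proximal Lck promoter that is active in developing thymocytes, and the controls had 1 floxed Ndrg3 allele of their own. The comparison asks what loss of the remaining Ndrg3 copy in thymocytes does to these transcripts.

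As background, engagement of the TCR activates calcium, MAP kinase and NF-kB pathways, and these switch on early response genes within minutes to hours. The EGR zinc-finger factors, the NR4A orphan nuclear receptors and the FOS and JUN subunits of the AP-1 complex are products of such genes. CD5 and CD6 are related surface receptors, and the CD5 level that a thymocyte sets during selection tracks how strongly its receptor binds self-peptide and MHC. Nr4a1 and the EGR genes rise quickly and fade, so their RNA follows recent signalling, whereas CD5 is a slower record.

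RefSeq promoter windows (GRCm38.p6, 250 bases before to 50 after a start) were at hand for 7 of the 10 members. Cd6, Egr1 and Egr3 had none. The windows were searched on both strands for TGACGTCA and CGTCA (the cAMP response element and its shorter core), TGANTCA (AP-1), GCGNGGGCG (EGR), AAAGGTCA (NR4A) and the CArG box of serum response factor. CGTCA also counts when it lies inside TGACGTCA. The Nr4a1 and Nr4a3 windows each held 4 matches of CGTCA. Of all 32851 windows, 0.231% held at least 4 and 20.8% at least 1. Fos held 2 and Junb 1. The windows of Cd5 and Jun held none of the 6 motifs. A CArG box, present in 1.63% of windows, lay in 4 of the 5 windows of Egr2, which has several starts. Some of these windows overlap and hold the same box, so the 4 are not 4 separate boxes. In the Egr2 window shown the box began 72 bases before the start, beside 2 CGTCA matches. An EGR match, present in 5.55% of windows, lay in that of Nr4a1. A match is a description of the letters and not a site of binding. The stretches of 4 members are shown because Nr4a1 and Nr4a3 moved together among the libraries, and Fos and Egr2 stand for the other factor families. They end at the RefSeq start of the window, except that of Nr4a3, which ends before its first annotated exon and holds 3 of its 4 matches. The stretches of Nr4a1 and Egr2 lie inside the annotated gene, past its first start, and outside its exons. Motif matches on either strand are in capitals, and each stretch is the plus strand.
Nr4a1, chr15:101266596-101266845: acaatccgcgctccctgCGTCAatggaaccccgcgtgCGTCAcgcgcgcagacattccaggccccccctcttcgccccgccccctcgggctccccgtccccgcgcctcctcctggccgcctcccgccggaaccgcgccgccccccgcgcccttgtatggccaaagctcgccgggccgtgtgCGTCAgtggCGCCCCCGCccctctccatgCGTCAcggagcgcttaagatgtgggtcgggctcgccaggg
Nr4a3, chr4:48045055-48045152: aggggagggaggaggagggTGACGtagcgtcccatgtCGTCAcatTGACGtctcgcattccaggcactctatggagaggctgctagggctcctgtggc
Fos, chr12:85473740-85473889: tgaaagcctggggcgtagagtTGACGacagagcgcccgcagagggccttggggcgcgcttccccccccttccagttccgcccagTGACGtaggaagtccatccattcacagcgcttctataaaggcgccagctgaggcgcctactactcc
Egr2, chr10:67537719-67537868: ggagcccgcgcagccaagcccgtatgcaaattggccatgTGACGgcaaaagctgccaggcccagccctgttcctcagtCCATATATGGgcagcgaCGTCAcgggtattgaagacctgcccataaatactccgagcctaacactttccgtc

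Positions of the whole genes are of GRCm38, from the GENCODE M21 annotation. Cd5 (ENSMUSG00000024669.7) lies at chr19:10717116-10739002 and Cd6 (ENSMUSG00000024670.16) beside it at chr19:10789341-10830058, both on the minus strand. Nr4a1 (ENSMUSG00000023034.6) lies at chr15:101254269-101274795 and Nr4a3 (ENSMUSG00000028341.9) at chr4:48045153-48086447. Egr1 (ENSMUSG00000038418.7) lies at chr18:34859823-34864984, Egr2 (ENSMUSG00000037868.15) at chr10:67535475-67542188 and Egr3 (ENSMUSG00000033730.3) at chr14:70077203-70082614. Fos (ENSMUSG00000021250.13) lies at chr12:85473890-85477273. These 6 genes are on the plus strand. Jun (ENSMUSG00000052684.4) at chr4:95049034-95052222 and Junb (ENSMUSG00000052837.5) at chr8:84974484-84978718 are on the minus strand. The antisense gene Junos overlaps Jun, and Prdx2 overlaps the end of Junb on the opposite strand. Whether the counting used strand is not given in the sources used here, so the counts of Jun and Junb may hold reads of their neighbours.

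Total counts per library ran from 21126698 to 32668081, so that 3 counts, taken as the floor, correspond to 0.0918 to 0.142 counts per 1000000 of the library total. Levels below are in CPM, counts per 1000000 with library sizes scaled by the TMM method. Ndrg3, the targeted gene, stood at 79.3, 81.5, 81.2 and 80.9 CPM in Ndrg3ctrl replicates 1 to 4 and at 50.4, 48.4, 53.1 and 55.3 CPM in the Ndrg3TKO libraries. The reads of all its exons are counted, the floxed one included, and the fitted difference was −0.64 on the log2 scale (adjusted p = 1.04e-05 by edgeR, standard error 0.0526). All 8 CD8 T cell markers were measured, none was called by edgeR or DESeq2 or reached an unadjusted p under 0.05, and their summed level ran from 6741 to 7876 CPM in Ndrg3ctrl and from 6974 to 7589 CPM in Ndrg3TKO. The B cell marker Ms4a1, the NK cell marker Ncr1 and 4 of 5 erythroid markers were at 0 in all libraries. Y-linked genes are given per 1000000 of the library total, without TMM scaling. They were at 340.5 to 416 in 1 Ndrg3ctrl library (replicate 2) and 2 Ndrg3TKO libraries (replicates 2 and 3), and at 0.0752 or less in the others. The library numbers in the header of the count table form 3 runs of neighbouring numbers, one with replicate 1 of each group, one with replicates 2 and 3 of each group and one with replicate 4 of each group. What these runs stand for is not given in the sources used here. In bulk RNA, fewer cells that express a gene and less of its RNA per cell cannot be told apart.

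Of the 10 reporter genes, Egr1 fell in Ndrg3TKO cells and the other 9 did not pass the test. Across all genes, 168 of 14633, or 1.15%, were called at an adjusted p under 0.05, 52 of them, or 0.355%, lower in Ndrg3TKO (quasi-likelihood test of edgeR, p-values adjusted by Benjamini-Hochberg). With DESeq2 the share called was 1.93%, with Y-linked expression as a covariate 2.99% and with a replicate block 5.47%, and Egr1 was among the called genes in each. The estimates of 9 of the 10 members were below 0, as were those of 51.2% of all tested genes, and the median log2 fold change was −0.13 for the members and −0.0033 for all tested genes. Egr1 alone among the 10 had groups that did not overlap, which was the case for 7.04% of all tested genes. The 9 members not called had adjusted p-values from 0.509 to 0.960.

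**Figure D1:**
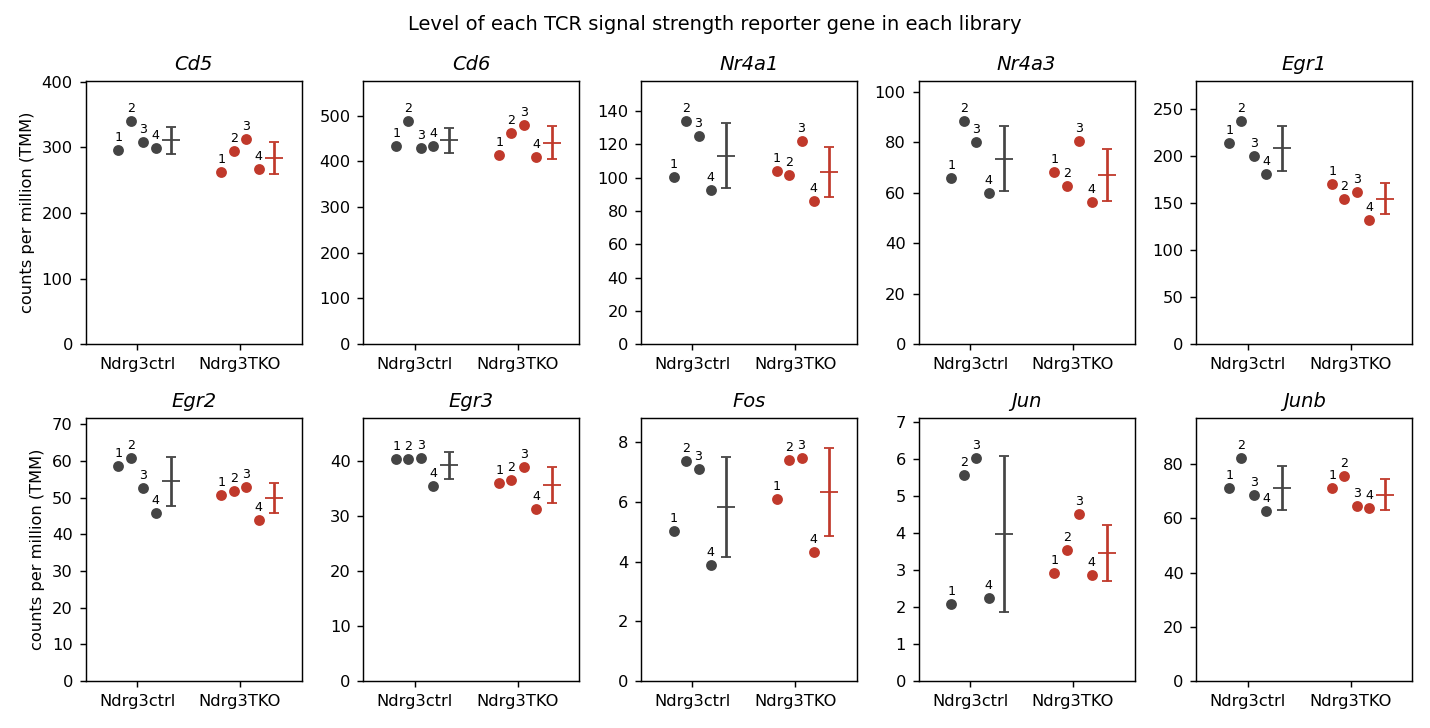
Level of each of the 10 members in CPM (TMM-scaled, linear axis from 0), with 1 point per library marked by its replicate number, Ndrg3ctrl in grey and Ndrg3TKO in red. The bar beside each group is the mean ± SD (n = 4). Egr1 ran from 181 to 237 CPM in Ndrg3ctrl and from 132 to 170.0 CPM in Ndrg3TKO, and the groups of the other 9 genes overlapped.

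Egr1 encodes a zinc-finger factor that is among the first products of TCR and MAP kinase signalling and takes part in positive selection of thymocytes. Its level was 214, 237, 199.7 and 181 CPM in Ndrg3ctrl replicates 1 to 4 and 170.0, 155, 162 and 132 CPM in Ndrg3TKO replicates 1 to 4. Each Ndrg3TKO library was below each Ndrg3ctrl library, with the lowest control, replicate 4, only a little above the highest knockout. The means were 208 ± 23.7 and 155 ± 16.4 CPM (SD, n = 4 mice per group), a fall of 25.6%. The log2 fold change was −0.43 (standard error 0.0889, 95% interval −0.62 to −0.23, adjusted p = 0.0422 by edgeR), and 31 of the 52 genes called lower fell by more. The adjusted p was close to the threshold. Without Ndrg3ctrl replicate 1 it was 0.134, without replicate 2 0.0683 and without replicate 3 0.0932. Without Ndrg3TKO replicate 2, 3 or 4 it was 0.0940, 0.0833 or 0.0789. The call held without Ndrg3ctrl replicate 4 (0.0184) or Ndrg3TKO replicate 1 (0.0459), and over the 8 omissions the log2 fold change ran from −0.49 to −0.36.

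The size of the Egr1 difference was also read within strata of the libraries. Its direction there was fixed in advance, because each Ndrg3TKO library was below each Ndrg3ctrl library. Among those with Y-linked counts the mean was 237 CPM in the single Ndrg3ctrl library and 158 CPM in the 2 Ndrg3TKO libraries, and among those without it was 198 CPM (n = 3) and 151 CPM (n = 2). The log2 ratios of these means were −0.58 and −0.39. Within the 3 runs of header numbers, the first and last with 1 library per group, the log2 ratios were −0.33, −0.46 and −0.45. No test was run within a stratum. Over all libraries, the adjusted p of Egr1 was 0.0136 by edgeR with Y-linked expression as a covariate and 0.00209 with the header runs as a block, a setting chosen after seeing the data.

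The related genes Egr2 and Egr3 encode factors that bind the same DNA motif as Egr1 and act in selection and in NKT cell development. Egr2 stood at 58.6, 60.9, 52.7 and 45.9 CPM in Ndrg3ctrl and at 50.6, 51.9, 52.9 and 43.8 CPM in Ndrg3TKO. Egr3 stood at 40.2, 40.3, 40.5 and 35.4 CPM in Ndrg3ctrl and at 35.9, 36.4, 38.9 and 31.1 CPM in Ndrg3TKO. The groups overlapped for both, with replicate 4 the lowest library of each group. The log2 fold change of Egr2 was −0.13 (95% interval −0.32 to 0.06, adjusted p = 0.633 by edgeR) and that of Egr3 −0.14 (−0.30 to 0.02, adjusted p = 0.550). A fall as large as that estimated for Egr1 lies outside both intervals. The interval of Egr1 itself, −0.62 to −0.23, overlaps both.

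The ratio of Egr1 to each other member within a library does not depend on the scaling of libraries. Egr1 was chosen for this comparison after its call was known. The log2 ratio of Egr1 to Egr2 was 1.93 ± 0.0479 in Ndrg3ctrl and 1.63 ± 0.0786 in Ndrg3TKO (SD, n = 4 per group), a difference of −0.30 (standard error 0.0460). That of Egr1 to Egr3 differed by −0.29 (standard error 0.0687) and that of Egr1 to Junb by −0.38 (standard error 0.0766). All 9 mean ratios were lower in Ndrg3TKO, by −0.29 to −0.56, which follows from Egr1 having the lowest estimate of the members. The 9 ratios share Egr1 and are not independent of each other. Of them 5, those to Cd6, Nr4a3, Egr2, Egr3 and Junb, did not overlap between the groups. The share of such ratios over other pairs of genes was not computed. Each of these 5 had p = 0.0286 in the 2-sided exact permutation test, the smallest that 4 against 4 allows, and p = 0.0514 after Benjamini-Hochberg adjustment over the 9 ratios. None of the 9 ratios thus passed the threshold after adjustment.

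**Figure D2:**
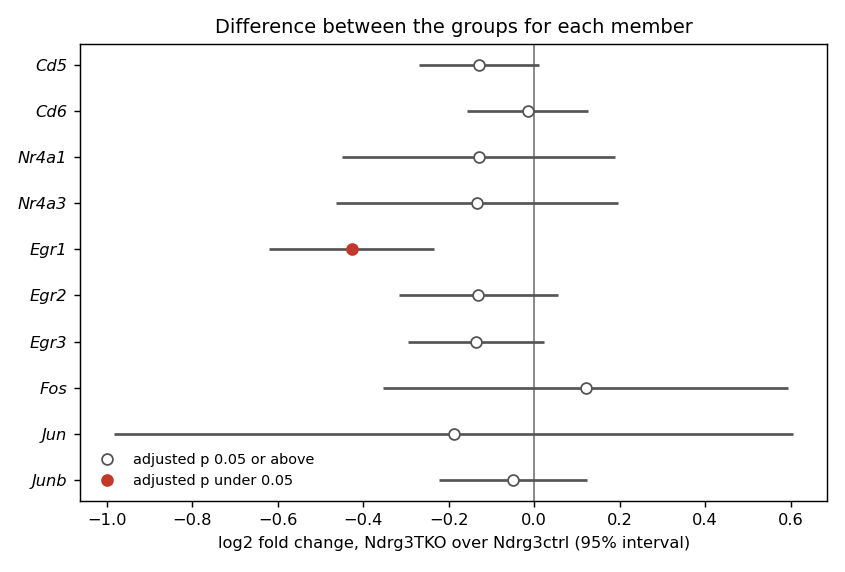
Log2 fold change of each member, Ndrg3TKO over Ndrg3ctrl, with its 95% interval from edgeR's quasi-likelihood test (4 mice per group). The filled point, Egr1 at −0.43, is the 1 member with an adjusted p under 0.05, and the intervals of the 9 open points include 0.

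CD5 restrains TCR signalling, and its surface level is widely used as a measure of self-reactivity. Cd5 RNA stood at 296, 339.9, 308 and 298 CPM in Ndrg3ctrl and at 262, 295, 312 and 267 CPM in Ndrg3TKO. Replicate 3 of Ndrg3TKO lay within the control range and the other 3 below it. The log2 fold change was −0.13 (standard error 0.0658, 95% interval −0.27 to 0.01, adjusted p = 0.509). With Y-linked expression as a covariate, Cd5 passed the threshold (−0.18, adjusted p = 0.0494). Cd6, whose product also binds ligands on antigen-presenting cells and modulates TCR signals, stood at 434, 488, 428 and 433 CPM in Ndrg3ctrl and at 413, 462, 480.2 and 409 CPM in Ndrg3TKO. The ranges of Cd6 nearly coincided, and its log2 fold change was −0.01 (95% interval −0.16 to 0.13, adjusted p = 0.960).

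Nr4a1, which encodes the orphan receptor NUR77, stood at 100.4, 134, 125 and 92.8 CPM in Ndrg3ctrl and at 104, 101, 122 and 85.7 CPM in Ndrg3TKO. Nr4a3, which encodes the related NOR1, stood at 66.0, 88.4, 80.0 and 59.8 CPM in Ndrg3ctrl and at 68.4, 62.7, 80.6 and 56.3 CPM in Ndrg3TKO. For both, Ndrg3ctrl replicates 2 and 3 and Ndrg3TKO replicate 3 were the high libraries. The log2 fold change was −0.13 for each gene, with intervals of −0.45 to 0.19 for Nr4a1 and −0.46 to 0.20 for Nr4a3 (adjusted p = 0.798 for both, edgeR). A fall of the size of that of Egr1 lies within the Nr4a1 and Nr4a3 intervals, so these data do not set it apart from no difference for either gene.

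The AP-1 subunit genes differed widely in level. Junb stood at 71.2, 82.3, 68.6 and 62.7 CPM in Ndrg3ctrl and at 71.1, 75.8, 64.4 and 63.7 CPM in Ndrg3TKO (log2 fold change −0.05, 95% interval −0.22 to 0.12, adjusted p = 0.874). Fos stood at 5.03, 7.37, 7.11 and 3.88 CPM in Ndrg3ctrl and at 6.10, 7.41, 7.48 and 4.33 CPM in Ndrg3TKO. Jun stood at 2.08, 5.55, 6.03 and 2.23 CPM in Ndrg3ctrl and at 2.92, 3.55, 4.51 and 2.86 CPM in Ndrg3TKO. The Jun libraries of Ndrg3ctrl split into a low and a high pair, with the 4 Ndrg3TKO libraries between them. The high pair, replicates 2 and 3, are the Ndrg3ctrl libraries of the middle run of header numbers. In Ndrg3TKO, too, replicates 2 and 3 of that run were the highest. The estimates were 0.12 for Fos (95% interval −0.35 to 0.59, adjusted p = 0.888) and −0.19 for Jun (−0.98 to 0.61, adjusted p = 0.891). With 61 to 178 counts of Jun and 106 to 236 of Fos per library, these 2 genes rest on the fewest reads of the 10.

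Between genes, levels were compared per kilobase of exon (CPM/kb). In Ndrg3ctrl the order was Cd5 (63.0 ± 4.11 CPM/kb), Cd6 (55.9 ± 3.55), Egr1 (46.4 ± 5.28), Nr4a1 (32.2 ± 5.58), Junb (30.9 ± 3.56), Egr2 (16.1 ± 1.97), Nr4a3 (12.3 ± 2.17), Egr3 (8.88 ± 0.567), Fos (2.49 ± 0.714) and Jun (1.25 ± 0.661), each as mean ± SD over 4 mice. The ranges of Cd5 and Cd6, of Nr4a1 and Junb, of Egr2 and Nr4a3 and of Fos and Jun overlapped there, and the other neighbours in the order were apart. In Ndrg3TKO the order was alike except that Junb (29.9 ± 2.49 CPM/kb) and Nr4a1 (29.4 ± 4.26) changed places, with overlapping ranges. The range of Egr1 in Ndrg3TKO (34.5 ± 3.66 CPM/kb) overlapped that of Junb, its next neighbour, whereas in Ndrg3ctrl it was apart from Nr4a1, then its next.

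The members also differed in how much libraries of one group varied. Differences between the runs of header numbers are part of this spread, because the fit held no block. The biological coefficient of variation, the spread between libraries beyond counting noise as edgeR estimates it, was 33.8% for Jun, above 99.0% of all tested genes, and 20.8% for Fos. It was 14.2% for Nr4a3 and 13.8% for Nr4a1, 9.29% for Egr1 and 7.41% for Cd5, beside a median of 9.19% over all tested genes. The highest library held 2.90 times the CPM of the lowest for Jun, 1.80 times for Egr1 and 1.19 times for Cd6.

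**Figure D3:**
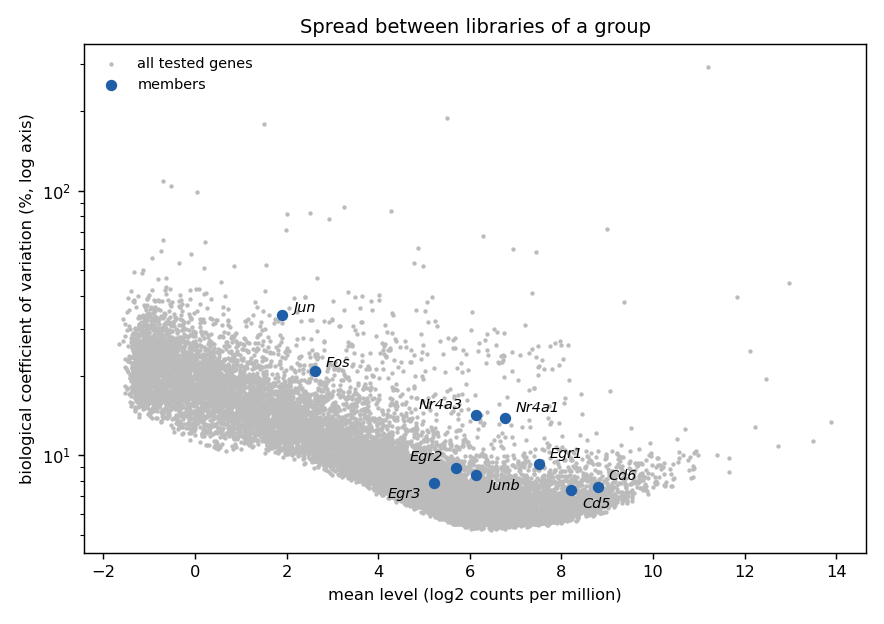
Biological coefficient of variation (percent, log axis) against mean level (log2 CPM) for all 14633 tested genes in grey and the 10 members in blue. Jun at 33.8% and Fos at 20.8% are the most variable members, Nr4a1 and Nr4a3 lie near 13.8% and 14.2%, and Cd5 is the least variable at 7.41%.

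Several members were high or low in the same libraries. The mean log2 deviation of the 8 transcription-factor members (all but Cd5 and Cd6) from their own means was −0.069, 0.333, 0.222 and −0.256 in Ndrg3ctrl replicates 1 to 4 and −0.050, 0.002, 0.120 and −0.302 in Ndrg3TKO replicates 1 to 4. In Ndrg3ctrl replicate 2 all 8 factors were above their own means, and in Ndrg3TKO replicate 4 none was. The 4 libraries of the middle run of header numbers, replicates 2 and 3 of both groups, had the 4 highest values.

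Pairs of members were correlated over the 8 libraries on log2 CPM, leaving out Egr1 because its groups did not overlap, which gave 36 pairs of 9 genes. All 36 correlations were positive, with a median r of 0.661, and 2 passed the threshold after adjustment over the 36 pairs. With the means of the header runs removed, 11 of the 36 were negative and the median r was 0.286. Fos had the strongest shifts, from 0.605 to −0.824 with Egr3, from 0.479 to −0.701 with Cd5 and from 0.616 to −0.595 with Egr2. Removing the run means leaves the group difference in, and 2 of the runs hold 1 library of each group. With the group means removed instead, Fos had r = 0.872 with Egr3, 0.727 with Cd5 and 0.779 with Egr2. These values still hold the differences between the runs, and the group and run means were not removed together. The reason for the change of sign was not tested. Nr4a1 and Nr4a3 had r = 0.990 (exact permutation p = 9.92e-05, adjusted p = 0.00357) and rho = 0.952 (exact permutation p = 0.00114, adjusted p = 0.0411). Without the 2 libraries farthest from the median r was 0.979, and with the means of the header runs removed 0.990. Egr2 and Egr3 had r = 0.881 (exact permutation p = 4.46e-04, adjusted p = 0.00804) and rho = 0.857 (exact permutation p = 0.0107, adjusted p = 0.129), with r = 0.790 without 2 libraries and 0.693 with the run means removed. Cd5 and Cd6 had r = 0.840 (exact permutation p = 0.00796, adjusted p = 0.0838) and rho = 0.738 (adjusted exact permutation p = 0.156), with 0.689 without 2 libraries and 0.666 with the run means removed. Each run holds 2 or 4 libraries, too few for a correlation of its own.

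**Figure D4:**
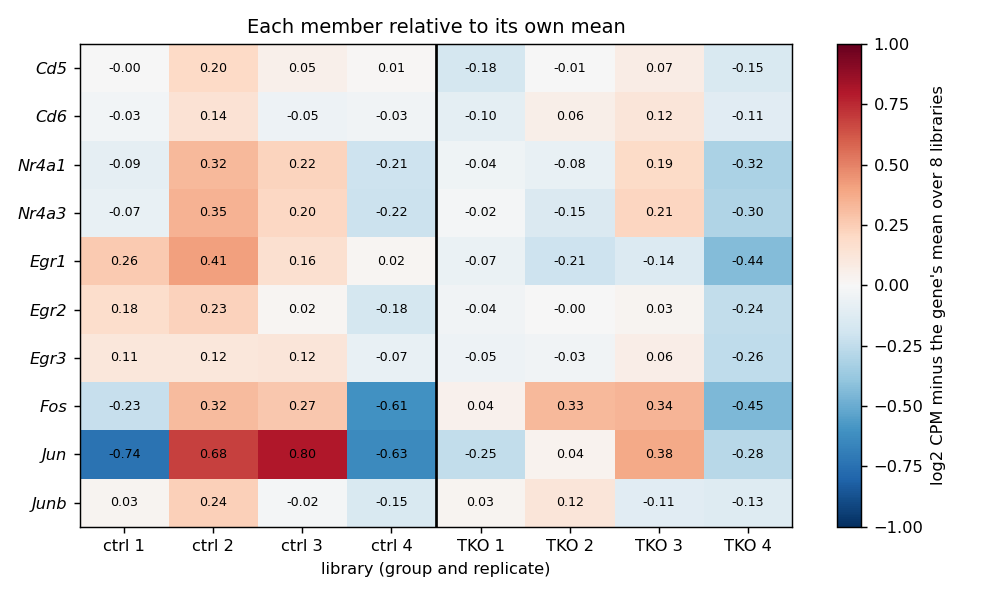
Log2 CPM of each member (rows) in each library (columns, Ndrg3ctrl left and Ndrg3TKO right of the line) minus the gene's mean over the 8 libraries, with the values printed in the cells. Jun ran from −0.74 to 0.80, Nr4a1 and Nr4a3 have nearly the same row, and in Egr1 the 4 Ndrg3ctrl libraries are all above 0 and the 4 Ndrg3TKO libraries all below it.

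The genes most alike to the members were ranked among 8918 genes with a mean of at least 10 CPM, by Pearson's r over the 8 libraries after removal of the group means. Those most like Cd5 were Rassf2 (0.982), Ess2 (0.975), Kat14 (0.971), Yars (0.971) and Zfp507 (0.969), and Cd6 stood at 0.969. Those most like the mean of the 8 factor members were Dhx29 (0.993), Bcor (0.968), Eif5b (0.960), Ramp1 (0.952) and Nkrf (0.951). Cd69, an early activation antigen that the TCR induces, was looked up outside this ranking. It stood at 0.941 with the factor mean and at 0.838 with Cd5. The ranked values are descriptions over 8 shared libraries, the highest of many correlations. The means of the header runs were not removed for any of these values, so differences between the runs are part of them.

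Genes of the same pathways were read from 6 lists of 78 genes, 70 of them tested. For comparison, 1.15% of all tested genes were called and 7.04% had groups that did not overlap. Among the other early response genes, 13 of 16 were tested and 1 was called. This was Fosl2, an AP-1 subunit of the FOS family, at 63.6 ± 4.08 CPM in Ndrg3ctrl and 51.6 ± 2.70 CPM in Ndrg3TKO (log2 fold change −0.30, standard error 0.0602, adjusted p = 0.0252). The call was lost without Ndrg3ctrl replicate 1 or 3 or Ndrg3TKO replicate 1, 3 or 4 (adjusted p 0.0569 to 0.104). The median of this list was −0.0073, close to that of all tested genes. Named after their values were seen, Zfp36, which encodes an mRNA-destabilising protein, differed by −0.19 (adjusted p = 0.102) with groups that did not overlap, and Ier2 by −0.27 (adjusted p = 0.158). Fosb, another FOS family gene, had the highest estimate of the list, 0.56 (95% interval 0.10 to 1.02, adjusted p = 0.337), at 1.54 ± 0.302 CPM in Ndrg3ctrl and 2.27 ± 0.505 CPM in Ndrg3TKO, and its groups overlapped. These 3 genes and Fosl2 were the 4 of the list with an unadjusted p under 0.05. Nr4a2, the third NR4A gene, differed by 0.13 (adjusted p = 0.836).

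Of 22 other TCR-induced genes, all tested, none was called by edgeR or by DESeq2, and 5 had an unadjusted p under 0.05. Their median log2 fold change was 0.01. The 3 with the highest levels were Ikzf2, which encodes the factor HELIOS (537 ± 41.1 and 625 ± 71.3 CPM, log2 fold change 0.22, adjusted p = 0.309), Nfatc1, a calcium-regulated factor (0.06, adjusted p = 0.740), and Tox, a factor of thymic selection (0.03, adjusted p = 0.864). With the Y-linked covariate 3 of the 22 were called.

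Of the 9 genes linked to self-reactivity in naive CD8 T cells, 8 were tested. All 8 had estimates below 0, and 2 were called, with a median of −0.27. Over all tested genes, 51.2% had estimates below 0, 1.15% were called and 7.04% had groups that did not overlap. Eomes, the T-box factor of memory and innate-like CD8 cells, fell from 15.2 ± 2.40 to 6.36 ± 0.996 CPM (log2 fold change −1.26, adjusted p = 1.70e-04). Cxcr3, a chemokine receptor gene, fell from 1.73 ± 0.36 to 0.584 ± 0.0726 CPM (−1.55, adjusted p = 0.00356). Named after their values were seen, Ly6c2 and Id3 also had groups that did not overlap, at −0.73 (adjusted p = 0.0632) and −0.27 (adjusted p = 0.0716). DESeq2 called both. The others tested were Il2rb (−0.07), the most abundant of the list, Xcl1 (−0.04), Tbx21 (−0.06) and Ly6a (−0.28). Their groups overlapped, and their adjusted p-values by edgeR ran from 0.431 to 0.981. This list and the calls of Eomes and Cxcr3 were known from earlier work on these data and are no independent evidence of its direction.

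Of the AP-1 partners and antagonists, 8 of 10 were tested and none was called by edgeR or DESeq2 (1 at an unadjusted p under 0.05). The 3 of highest level were Bach2 (0.01), a repressor at AP-1 motifs, Atf2 (0.07) and Bach1 (−0.13). Of 14 upstream factors 13 were tested and none was called by either tool, or reached an unadjusted p under 0.05. Among these, Ets1 (0.05), Elk4 (−0.02), a partner of serum response factor, and Mef2d (0.06) had the highest levels. Of 7 heat shock genes, read as a sign of stress during sorting, 6 were tested and none was called by either tool (1 at an unadjusted p under 0.05). Hspa8 (−0.07), Hsp90aa1 (−0.12) and Dnajb1 (−0.06) had the highest levels.

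**Figure D5:**
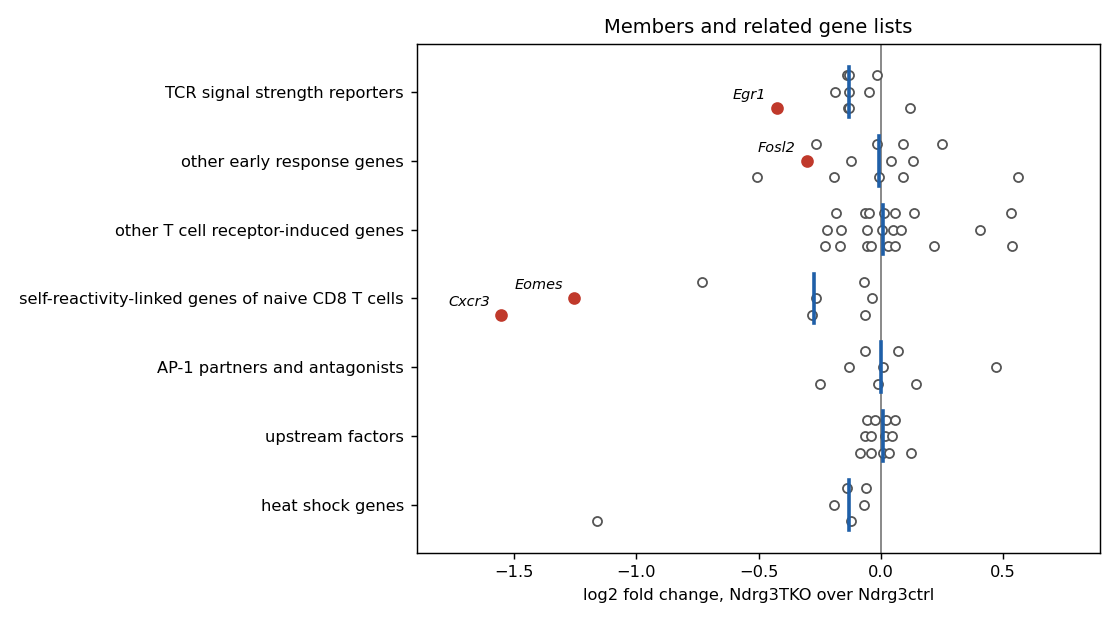
Log2 fold change (Ndrg3TKO over Ndrg3ctrl) of the 10 members and of the tested genes of 6 related lists. Filled points have an adjusted p under 0.05 (edgeR) and the vertical bar is the median of the list. Egr1 at −0.43, Fosl2 at −0.30, Eomes at −1.26 and Cxcr3 at −1.55 are the called genes.

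Markers of maturation were read beside these genes. Of the markers of mature single-positive thymocytes, S1pr1 (log2 fold change −0.19, adjusted p = 0.203), Klf2 (−0.26, adjusted p = 0.130), Il7r (−0.11, adjusted p = 0.516) and Ccr7 (−0.26, adjusted p = 0.135) all had estimates below 0. None of these 4 was called by edgeR or DESeq2 (3 at an unadjusted p under 0.05), and the groups overlapped for each. Of 6 markers of immature thymocytes 4 were tested and none was called by edgeR (2 at an unadjusted p under 0.05), while DESeq2 called 1. The summed level of all 6 did not overlap, at 498 to 551 CPM in Ndrg3ctrl and 574 to 650 CPM in Ndrg3TKO. Its 2-sided exact permutation p was 0.0286, with an adjusted p of 0.229 over 16 summed levels. Most of the sum was Ccr9 (log2 fold change 0.18, adjusted p = 0.216 by edgeR). Dntt (0.45, adjusted p = 0.0783) and Cd24a (0.16, adjusted p = 0.498) were also above 0. Rag1 went the other way (−0.46, adjusted p = 0.823), so the sum does not speak for all markers of the list. Of 4 NKT or NK cell markers 2 were tested, and Klrb1c was called higher, at 0.305 ± 0.232 CPM in Ndrg3ctrl and 1.77 ± 0.299 CPM in Ndrg3TKO. Klrd1, the most abundant of the list, was at 31.5 ± 2.03 CPM in Ndrg3ctrl and 39.0 ± 7.22 CPM in Ndrg3TKO (log2 fold change 0.31, adjusted p = 0.320), with overlapping groups. Zbtb16, the defining factor of NKT cells, did not pass the filter on low counts, and its groups did not overlap, at 0.146 to 0.335 CPM in Ndrg3ctrl and 0.0314 to 0.0921 CPM in Ndrg3TKO, the latter near or under the floor of 3 counts. Of 7 myeloid or dendritic markers 1 was tested and not called, with summed levels of 1.06 to 1.72 CPM in Ndrg3ctrl and 0.969 to 1.26 CPM in Ndrg3TKO. Of the CD4 lineage markers 3 of 4 were tested, of the gamma delta T cell markers 2 of 4 and of the epithelial or stromal markers 3 of 5, and none of these was called by edgeR or DESeq2 (1, a CD4 lineage marker, at an unadjusted p under 0.05). No B cell or erythroid marker passed the filter on low counts. The part of these markers in the Egr1 result was not tested.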

How the data were processed

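RNA of sorted CD8SP thymocytes was sequenced for 4 Ndrg3ctrl and 4 Ndrg3TKO mice. Per the labels and methods, cutadapt was used by the authors for trimming, STAR for alignment to GRCm38.p4 and featureCounts for counts per gene. The deposited values are raw counts, not normalized, and all 8 sample columns were used. The strand setting is not given in the sources used here, although the library kit marks strand.

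In edgeR 4.0.16 (R 4.3.3, limma 3.58.1), filterByExpr removed genes of low count, TMM set the library sizes, and the robust quasi-likelihood fit (glmQLFit, glmQLFTest) gave p-values, adjusted by Benjamini-Hochberg over 14633 genes (threshold 0.05). The standard error was taken as the size of the log2 fold change over the root of its F statistic. DESeq2 1.42.0, other scalings and filters, a replicate block, a Y-linked covariate and leaving out each library were alternatives. The study's methods name DESeq2 for the comparison of groups and give no design formula. Of the identifiers, 98.5% matched GENCODE M21, which gave symbols, positions and exonic lengths. Single values were compared by 2-sided exact permutation tests.

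The 10 members and all lists were chosen with earlier results of these data known. Named are all members, Ndrg3, the called genes of each related list or else its 3 of highest mean level, marker genes at 0 or most abundant, Eomes and Cxcr3, and the 5 genes most alike to Cd5 and to the factor mean. Others lie outside this rule, and some of these are said to be named after their values were seen. The edgeR procedure was tested on simulated counts in 3 runs for this comparison (200 changed genes, about 14649 tested). It recovered 84.3% of log2 changes of size 1 and 58% of size 0.5, with 6.16% of calls false. The floor of 3 counts speaks of counting error alone, as amplified reads with no molecular identifier can stem from 1 molecule. Labels call the libraries biological replicates. 1 marker gene and the summed level that holds it are not reported here.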

Additional observations from a re-analysis of the deposited data

Results flagged for a closer look

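2 single libraries stood far from the others of their group by Dixon's test at the 95% level. Cd6 in Ndrg3ctrl replicate 2 was at 488 CPM, with the other 3 Ndrg3ctrl libraries at 428 to 434 CPM. Egr3 in Ndrg3ctrl replicate 4 was at 35.4 CPM, with the other 3 at 40.2 to 40.5 CPM. Of 34 groups of values checked, 2 stood apart in this way, and chance gives about 1 in 20, or 1.7.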

How the results depend on the processing

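The call of Egr1 held in 10 of 16 alternatives, with a log2 fold change of −0.49 to −0.36 over all of them. Its adjusted p was 9.79e-04 with DESeq2, 0.0427 with RLE size factors, 0.0475 with no filter and 0.0428 with at least 10 counts in every library. The count of all genes called was 309 with DESeq2, 274 with no filter, 437 with the Y-linked covariate and 90 to 158 with 1 library left out. Members called were 2 (Egr1 and Cd5) with the Y-linked covariate and 0 to 1 with 1 library left out. Early response genes called were 2 with DESeq2 or no filter, 3 with the covariate and 0 to 2 with 1 library left out. TCR-induced genes called were 3 with the covariate, and genes linked to self-reactivity 4 with DESeq2 or the covariate. The cause of these shifts was not tested. Estimates near 0 changed sign. With 1 library left out, the log2 fold change ran from −0.058 to 0.029 for Cd6 (above 0 without Ndrg3ctrl replicate 2, Ndrg3TKO replicate 1 or Ndrg3TKO replicate 4), from −0.035 to 0.27 for Fos (below 0 without Ndrg3ctrl replicate 4), from −0.41 to 0.11 for Jun (above 0 without Ndrg3ctrl replicate 3) and from −0.11 to 0.024 for Junb (above 0 without Ndrg3ctrl replicate 2). With the covariate, Fos was at −0.021.

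Same-numbered libraries of the 2 groups deviated together with r = −0.055 to 0.415 (mean 0.211, other pairs −0.0687), 1 of the 4 was under 0.1, and Ndrg3ctrl replicate 3 correlated best with another number, so the numbers were not taken to pair the mice. With the replicate block, 800 of all genes (5.47%), Egr1 alone of the members, 3 early response, 5 TCR-induced and 4 self-reactivity genes, 1 AP-1 partner (Atf4) and 1 heat shock gene (Hsph1) were called.

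Chosen after seeing the data, the runs of header numbers as a block called 4 self-reactivity genes and 1 AP-1 partner. That block with the Y-linked covariate called 830 of all genes, 2 members (Egr1 and Cd5), 3 early response, 3 TCR-induced and 4 self-reactivity genes and 1 AP-1 partner, and turned Jun to 0.020. The wide spread between libraries limits what can be said of Fos and Jun.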
